A study of Sus scrofa with 4 samples.

Results

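The genes PIEZO1, TRPV4, YAP1, CCN1, CCN2 and CCN3, which take part in how cells sense and answer mechanical load, were followed through single-cell RNA sequencing of pig meniscus. They were taken by gene symbol, and all 6 were found among the 21280 features of the count matrices. The tissue came in 4 libraries, 1 each for the white zone of the medial meniscus, the white zone of the lateral meniscus, the red zone of the medial meniscus and the red zone of the lateral meniscus. The red zone lies at the vascular outer rim of the meniscus, and the white zone is its avascular inner edge. The labels name no animals, ages, breed or treatment, and say that tissue was cut free of synovium and digested with pronase and then collagenase P before cells were loaded on the 10x Genomics 3′ v3.1 assay. With 1 library for each combination, the 2 menisci served as the replicates of a zone, so a p-value speaks for these libraries only. The zone tests had 1 residual degree of freedom, so the spread behind a p-value was mostly borrowed across genes.

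PIEZO1 and TRPV4 are calcium-permeable cation channels. PIEZO1 opens when the membrane is stretched, and TRPV4 responds to osmotic and mechanical stimuli and is known from cartilage as a channel of chondrocytes. YAP1 is a transcriptional coactivator that the kinases of the Hippo pathway keep out of the nucleus and that acts with TEAD factors. CCN1 (also named CYR61) and CCN2 (also named CTGF) are secreted matricellular proteins and well-known YAP1 target genes, and CCN3 (also named NOV) belongs to the same protein family. On the pig assembly Sscrofa11.1, the RefSeq gene table placed PIEZO1 at chr6:914480-967113, TRPV4 at chr14:41125819-41169582, YAP1 at chr9:32811629-32924926, CCN1 at chr4:130392404-130395179, CCN2 at chr1:31674398-31677697 and CCN3 at chr4:19505698-19514481.

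After filtering, 27581 of 27782 barcodes were kept, with between 5589 and 7807 cells and between 9283282 and 14902274 UMIs (distinct captured RNA molecules) per library. The median cell held between 1455 and 1617 UMIs. Each pair of libraries shared between 10 and 20 cell barcodes. Levels are given as CPM, the UMIs of a gene per 1000000 summed UMIs of the same cells. Since the assay reads 3′ ends and CPM is not per gene length, levels are compared between cells and not between genes. Cells were grouped by their UMIs of fixed marker lists, none of which holds any of the 6 genes. The white libraries were mostly fibrochondrocyte-list cells (47.9% of medial white and 20.8% of lateral white cells, against 2.68% of medial red and 6.48% of lateral red) and chondrocyte-list cells (20.7% and 32.7% against 0.191% and 0.68%). The red libraries held most of the fibroblast, endothelial, mural (vessel wall) and myeloid groups. In counts summed over all cells, fewer cells of a type and less RNA per cell cannot be told apart.

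TRPV4 was the member that separated the zones over all cells. Its level was 10.1 CPM in medial white and 4.30 CPM in lateral white, against 0.760 CPM in medial red and 0.539 CPM in lateral red. These levels rest on 150 and 59 UMIs in the white libraries, against 9 and 5 UMIs in the red libraries. Both white libraries lay above both red ones, and the exact 95% Poisson intervals, which cover counting error only, reached down to 3.27 CPM in lateral white and up to 1.44 CPM in medial red. The mean was 7.18 ± 4.08 CPM in white and 0.649 ± 0.156 CPM in red (SD, n = 2 each). By edgeR's quasi-likelihood test with the meniscus as second term, the white over red log2 fold change of TRPV4 was 3.91 ± 0.38 (SE), with a Benjamini-Hochberg adjusted p of 0.000167. It was the only 1 of the 6 genes called at an adjusted p below 0.05, in a comparison in which 39.8% of 12463 tested genes were called, 17.8% higher and 22.0% lower.

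**Figure D1:**
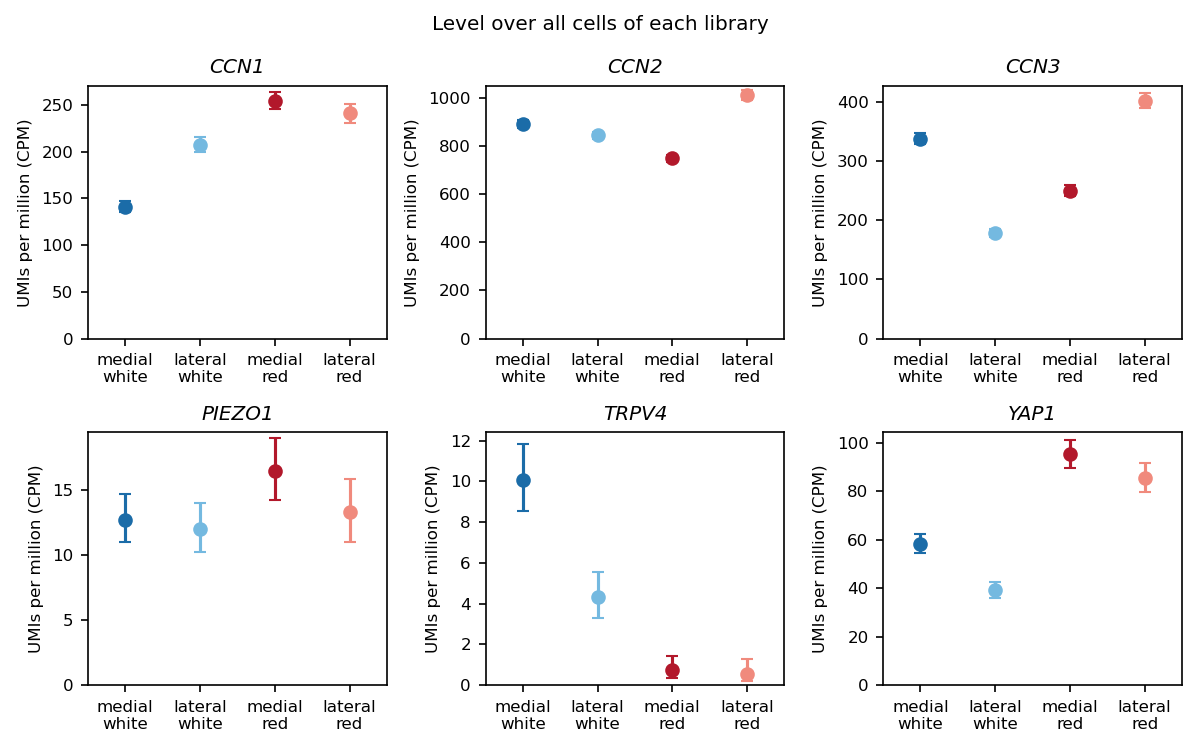
Level of each gene over all cells of each library, in CPM, with exact 95% Poisson intervals as bars. TRPV4 stands at 10.1 and 4.30 CPM in the medial and lateral white libraries against 0.760 and 0.539 CPM in the medial and lateral red ones, while the libraries of the other 5 genes overlap or lie closer together.

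Most TRPV4 UMIs of the white zone lay in the matrix-producing groups, of which only chondrocyte-list cells held more than their share of cells. Chondrocyte-list cells held 53 of the 150 TRPV4 UMIs of medial white and 31 of the 59 of lateral white, a level of 17.7 and 6.02 CPM. Fibrochondrocyte-list cells held 55 and 7 UMIs, a level of 7.24 and 2.78 CPM. That was 36.7% and 11.9% of the TRPV4 UMIs of medial and lateral white, from 47.9% and 20.8% of the cells. For chondrocyte-list cells it was 35.3% and 52.5% of the UMIs, from 20.7% and 32.7% of the cells. Cells with markers of more than 1 list held 32 and 12 UMIs, or 21.3% and 20.3%, from 16.0% and 16.9% of the cells. The fibroblast group held 1 UMI in each white library, against 5 in medial red and 3 in lateral red. In myeloid cells TRPV4 had 0 UMIs in every library. The red zone had few cells in which to look: fibrochondrocyte-list cells had 0 TRPV4 UMIs in both red libraries, where the limit of 3 UMIs stands at 10.97 CPM in medial red and 4.74 CPM in lateral red, and the 51 chondrocyte-list cells of the red zone gave 1 UMI. A zone difference of TRPV4 inside a cell group was therefore not detectable at this depth, and the gene was too low for the filter of the tests within groups. The fibrochondrocyte-list cells also fell into clusters, found without the members, whose shares differed between zones. Cluster 0, with 26 and 28 cells in medial and lateral red, had 82 and 1 TRPV4 UMIs in medial and lateral white (10.9 and 1.95 CPM). Cluster 2, with 203 and 436 red cells, had 1 UMI in each white library and 0 in each red one. The part of these clusters was not tested. The shares of fibrochondrocyte- and chondrocyte-list cells given above differ between the zones in the same direction as TRPV4, and their part in its difference was not tested.

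PIEZO1 was low in every library, and among the 5 groups tested its level was highest in endothelial cells. Over all cells it had 12.7 and 12.0 CPM in medial and lateral white, against 16.5 and 13.2 CPM in medial and lateral red, from 189, 164, 195 and 123 UMIs in that order. Both white values lay below both red ones in CPM. The white over red log2 fold change was 0.22 ± 0.21 with TMM scaling (edgeR, adjusted p = 0.43) and −0.27 without it (adjusted p = 0.346), so its direction depends on the scaling. In endothelial-list cells its level was 44.8 CPM in medial white, 21.4 in lateral white, 37.9 in medial red and 28.9 in lateral red. The endothelial mean of 33.2 ± 10.2 CPM (SD, n = 4 libraries) was followed by the myeloid group at 19.9 ± 6.27, the mural group at 15.3 ± 2.59, fibrochondrocyte-list cells at 7.06 ± 5.19 and fibroblasts at 6.98 ± 4.95 CPM. The values of neighbouring groups in this order overlapped, except that all mural values lay above those of fibrochondrocyte-list cells. Many rest on few UMIs. Medial and lateral white held 2 and 3 in myeloid cells, 3 and 5 in mural cells and 1 and 0 in fibroblasts. Fibrochondrocyte-list cells held 0 and 4 in medial and lateral red, and endothelial cells 5 in lateral white. The remaining sums held 10 to 82 UMIs. The order below the endothelial group is therefore not resolved at this depth.

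Set against the mean of the other 4 groups, with the library as block, PIEZO1 was higher in endothelial cells by a log2 fold change of 1.18 ± 0.25 (edgeR, adjusted p = 0.000536). Of all 8596 genes tested there, 41.3% were called, and 3 of the 5 members tested. PIEZO1 was called in none of the other 4 groups (without TMM scaling it was called lower in fibrochondrocyte-list cells, −0.95, adjusted p = 0.0194), and the endothelial level did not differ detectably between the zones (log2 fold change −0.14 ± 0.36, adjusted p = 0.871). PIEZO1 had 0 UMIs in the 175 fibroblasts of lateral white and in the 182 fibrochondrocyte-list cells of medial red.

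Other mechanosensitive or calcium entry channels and partners of PIEZO1 moved in both directions. Over all cells 2 of the 18 tested rose in the white zone and 8 fell, where 17.8% of all genes rose and 22.0% fell. Their median log2 fold change was −0.27, against −0.0054 over all genes. MDFI, a relative of the PIEZO-binding protein MDFIC, had 18.9 and 34.5 CPM in medial and lateral white, against 3.29 and 5.17 CPM in medial and lateral red, and rose by 3.12 ± 0.22. TRPC6, a calcium-permeable channel of smooth muscle, had 1.21 and 2.26 CPM in white, against 24.4 and 30.6 CPM in red, a log2 fold change of −3.52 ± 0.27. Also lower were TMEM150C (−2.43 ± 0.23) and TRPC1, a channel subunit of the same family as TRPC6 (−1.65 ± 0.23). TRPC6 was also higher in the mural group than in the other groups by 6.86 ± 0.27. Inside cell groups, 1 of 13 was called in fibrochondrocyte-list cells, 1 of 11 in endothelial cells, and 1 higher and 1 lower of 15 in mural cells. Of all genes, 5.85%, 6.31% and 11.4% were called there. None was called in fibroblasts or myeloid cells, where 2.47% and 6.26% of genes were. PIEZO2, the second stretch-activated PIEZO channel, was lower in white fibrochondrocyte-list cells (13.9 and 9.94 CPM in medial and lateral white, against 58.5 and 28.4 CPM in medial and lateral red, log2 fold change −1.73 ± 0.41, edgeR adjusted p = 0.00169). The part of the clusters of these cells in that value was not tested.

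Among the 5 groups tested, YAP1 was highest in the mural group. Its level there was 144 and 155 CPM in medial and lateral white, against 184 and 174 CPM in medial and lateral red. The 4 mural values lay above every value of the other 4 groups, and the log2 fold change against the other groups was 1.76 ± 0.15 (edgeR, adjusted p = 2.33e-09), in a comparison that called 33.8% of 8596 genes and 2 of 5 members. Means over the 4 libraries ran from 164 ± 18.1 CPM in mural cells to 100.7 ± 16.1 in fibroblasts, 84.5 ± 13.0 in endothelial cells, 59.8 ± 12.2 in fibrochondrocyte-list cells and 3.07 ± 3.68 CPM in myeloid cells (SD, n = 4). The values of neighbouring groups overlapped among fibroblasts, endothelial cells and fibrochondrocyte-list cells and nowhere else. YAP1 was also called higher in fibroblasts (1.15 ± 0.16), fibrochondrocyte-list cells (0.69 ± 0.17) and endothelial cells (0.55 ± 0.17), each against the mean of the other groups. That mean includes the myeloid group, at 3.07 CPM, which lowers it. By mean level, fibrochondrocyte-list cells lay below mural cells, fibroblasts and endothelial cells. The fibrochondrocyte call was lost without TMM scaling, where the value was 0.19 (adjusted p = 0.37).

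In myeloid cells YAP1 had 0 UMIs in both white libraries, against 7 in medial red and 4 in lateral red. After each cell was thinned to 1000 UMIs, 14.9% and 20.5% of mural cells held a YAP1 UMI in medial and lateral white, against 17.3% and 15.7% in medial and lateral red. Without thinning the mural shares were 15.7% and 23.7% in white, against 25.9% and 22.6% in red. The thinned share of myeloid cells was at most 0.595% in any library.

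Between the zones YAP1 over all cells read lower in white, with 58.2 and 39.1 CPM in medial and lateral white, against 95.2 and 85.5 CPM in medial and lateral red. The groups did not overlap, but the difference missed the threshold under TMM scaling (log2 fold change −0.43 ± 0.17, edgeR adjusted p = 0.0865). Scaling decides this value: with library totals in place of TMM it was −0.92 (adjusted p = 0.00171), a setting in which the median of all genes stood at −0.49 and the calls split into 914 higher and 5170 lower, against 2217 higher and 2744 lower with TMM. Zone fits with 1 library left out have no room for the meniscus term and drop it too. Such a fit gave −0.65 without medial white (adjusted p = 0.0182) and −0.20 without lateral white (adjusted p = 0.426), and dropping the term alone gave −0.41 (adjusted p = 0.139). Mural cells made up 1.96% and 2.06% of the cells of medial and lateral white, against 14.8% and 16.7% of medial and lateral red, and their part in the all-cell value was not tested. Inside the 4 groups where YAP1 was tested no zone difference was called, with log2 fold changes between −0.31 and 0.14.

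Of the Hippo kinases and YAP1 partners, 4 of 23 tested rose and 4 fell in the white zone over all cells, close to or below the shares over all genes of 17.8% higher and 22.0% lower. STK4, a core kinase of the pathway, had 10.1 and 11.2 CPM in medial and lateral white, against 49.7 and 59.8 CPM in medial and lateral red (log2 fold change −1.87 ± 0.18, edgeR adjusted p = 0.000166). WWTR1, which encodes the YAP1 paralog TAZ, ran the other way from STK4, with 253 and 234 CPM in white, against 144 and 162 CPM in red (1.16 ± 0.19, adjusted p = 0.002). AMOTL1, an angiomotin-like protein that binds YAP1, rose by 1.23 ± 0.17, and VGLL3, a cofactor of TEAD factors, had a log2 fold change of −2.43 ± 0.45. WWTR1 was also higher inside fibrochondrocyte-list cells, with 213 and 185 CPM in medial and lateral white, against 87.7 and 123 CPM in medial and lateral red (0.96 ± 0.28, adjusted p = 0.0159). The clusters of these cells differed between the zones, and their part in the WWTR1 value was not tested. Genes other than the members were read in the main fit only. Among YAP1 target genes other than the members, 3 of 16 rose and 3 fell, near the same all-gene shares, with a median of −0.14.

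**Figure D2:**
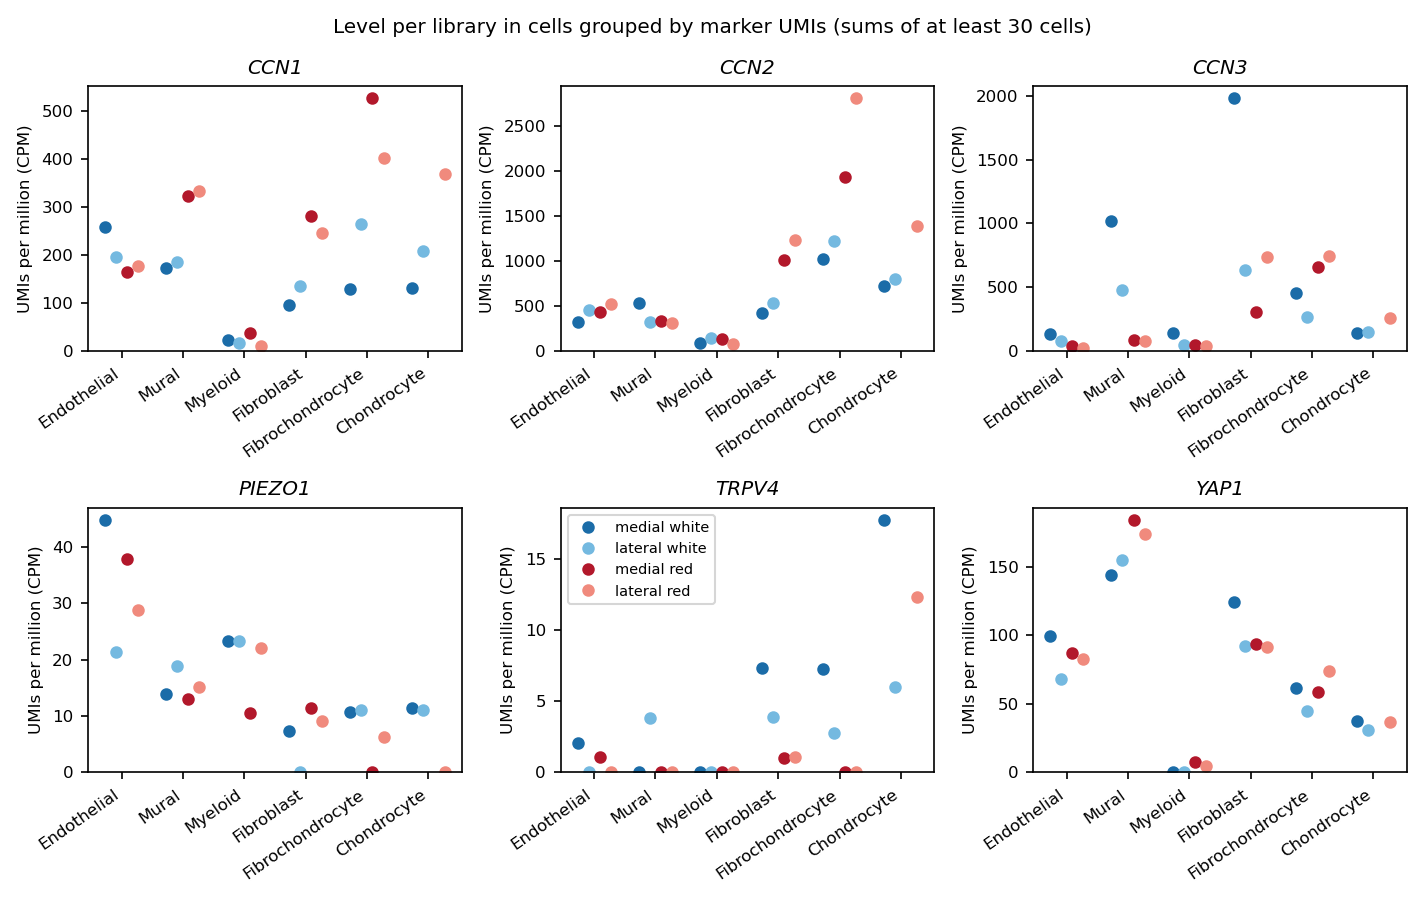
Level of each gene in 6 groups of cells chosen by marker UMIs, in CPM, 1 point per library for sums of at least 30 cells. YAP1 is at 144 to 184 CPM in the mural group and PIEZO1 at 21.4 to 44.8 CPM in the endothelial group.

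Among the 5 groups tested, the mean levels of CCN1 and CCN2 were highest in fibrochondrocyte-list cells and lowest in myeloid cells. The lymphatic endothelial group, too small to be tested, read higher for CCN1, with 612 CPM in 41 medial red cells and 849.9 CPM in 9 lateral red cells (63 and 9 UMIs). CCN2 averaged 1749 ± 807 CPM in fibrochondrocyte-list cells, 801 ± 388 in fibroblasts, 433 ± 82.0 in endothelial cells, 373 ± 105 in mural cells and 113 ± 32.9 CPM in myeloid cells (SD, n = 4). The values of each group overlapped with those of the next, apart from the myeloid ones. CCN1 averaged 330.4 ± 172 CPM in fibrochondrocyte-list cells, 254 ± 86.8 in mural cells, 199 ± 41.7 in endothelial cells, 189 ± 88.2 in fibroblasts and 22.0 ± 11.7 CPM in myeloid cells, and all but the last overlapped. Against the other groups, fibrochondrocyte-list cells were higher for CCN2 by 2.76 ± 0.20 (edgeR, adjusted p = 4.08e-10) and for CCN1 by 1.83 ± 0.22 (adjusted p = 3.24e-07). That comparison called 39.8% of genes and 4 of 5 members. In myeloid cells CCN1 was lower by a log2 fold change of −3.54 ± 0.37 and CCN2 by −2.68 ± 0.31, where 52.2% of genes and 4 of 5 members were called. CCN1 was also higher in mural cells (0.72 ± 0.23) and CCN2 in fibroblasts (1.02 ± 0.22), where 33.3% of genes and 3 of 5 members were called. When the chondrocyte-list cells, whose red sums rest on 13 and 38 cells, were added as a further group, an alternative chosen after seeing the data, CCN2 was higher in them by 1.14 ± 0.25 and CCN1 by 0.92 ± 0.27, with 37.1% of genes called.

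Over all cells neither gene separated the zones. CCN2 had 892 and 844 CPM in medial and lateral white, against 748 and 1013 CPM in medial and lateral red, and the groups overlapped (log2 fold change 0.49 ± 0.25, edgeR adjusted p = 0.163, and −0.0051 without TMM scaling). CCN1 had 141 and 207 CPM in white, against 255 and 241 CPM in red. The white libraries lay lower in CPM, yet the log2 fold change after TMM scaling was −0.04 ± 0.22 (adjusted p = 0.896).

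Inside cell groups, CCN1 fell in the white zone in fibrochondrocyte-list and mural cells, and CCN2 in fibrochondrocyte-list cells and fibroblasts. In fibrochondrocyte-list cells CCN1 had 129 and 265 CPM in medial and lateral white, against 526 and 401 CPM in medial and lateral red. The groups did not overlap, and the log2 fold change was −1.22 ± 0.27 (edgeR, adjusted p = 0.000756). CCN2 in the same cells had 1024 and 1227 CPM in medial and lateral white, against 1934 and 2809 CPM in medial and lateral red, with −0.98 ± 0.28 (adjusted p = 0.0158). In these cells 5.85% of genes were called, and 3 of 5 members, CCN3 among them. In fibroblasts CCN2 had 425 and 529 CPM in white, against 1016 and 1236 CPM in red (−1.30 ± 0.30, adjusted p = 0.0365), where 2.47% of genes and 1 of 5 members were called, and CCN1 in fibroblasts missed the threshold (−1.20 ± 0.30, adjusted p = 0.0513). The white fibroblast group was small, with 96 and 175 cells in medial and lateral white, against 2875 and 1610 in medial and lateral red, and the 14 markers of its list did not all read to the same side between the zones. In medial and lateral white 4 and 2 of them were at 0, against 0 in both red libraries. PI16 and MFAP5 were at 0 in both white libraries, against 560.3 and 557 CPM in medial red and 139.9 and 409.9 CPM in lateral red, while PDGFRA had 770.2 and 351 CPM in medial and lateral white, against 182 and 256 CPM in medial and lateral red. VCAN had 4218 and 2705 CPM in white, against 1557 and 1967 CPM in red. The part of this make-up in the fibroblast result was not tested. The CCN2 call in fibroblasts was lost without TMM scaling (−1.24, adjusted p = 0.0678), without medial white (−1.13, adjusted p = 0.0665) and without either red library, but not when the meniscus term alone was dropped (−1.28, adjusted p = 0.0423). In mural cells CCN1 had 172 and 185 CPM in medial and lateral white, against 322 and 334 CPM in medial and lateral red (−0.83 ± 0.26, adjusted p = 0.0154), where 11.4% of genes and 2 of 5 members were called. This CCN1 call was lost when any 1 library was left out, and with DESeq2 (−0.82, adjusted p = 0.494), but not when the meniscus term alone was dropped (−0.82, adjusted p = 0.0323). In myeloid cells, where 6.26% of genes were called, none of 4 members tested was called by edgeR or by DESeq2, and none had an unadjusted p below 0.05.

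**Figure D3:**
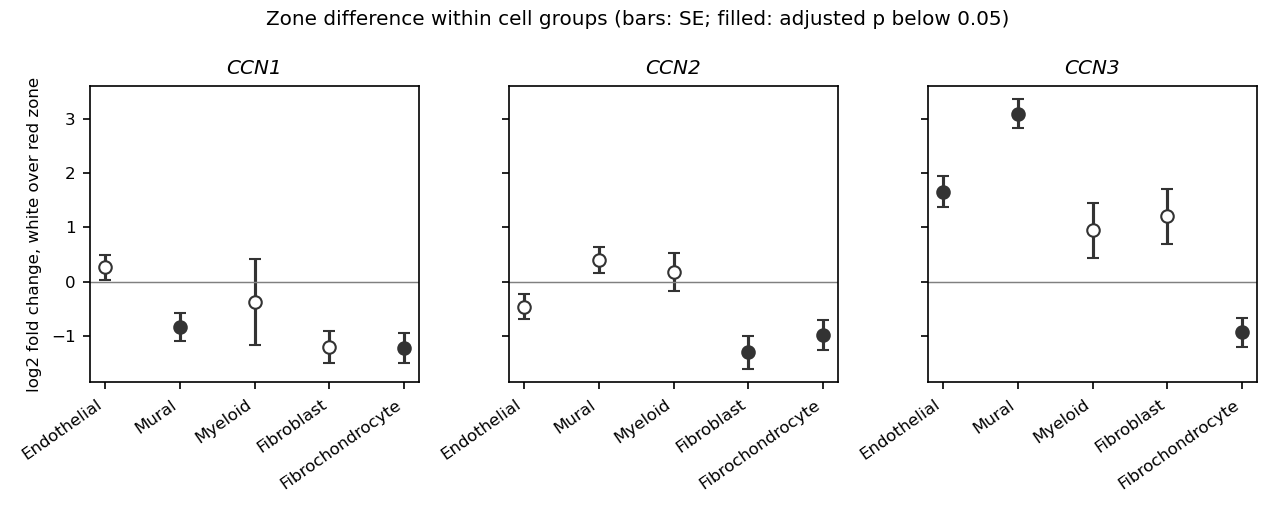
White over red log2 fold change of CCN1, CCN2 and CCN3 within 5 cell groups, with standard errors as bars. Filled points passed an adjusted p of 0.05: CCN3 reads 3.09 in mural and 1.66 in endothelial cells and −0.93 in fibrochondrocyte-list cells.

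The fibrochondrocyte and fibroblast values of CCN1 and CCN2 rest on a grouping in which the make-up differed between zones. Of the cells of the fibrochondrocyte-list clusters found without the 6 genes, cluster 0 held 3508 and 305 cells in medial and lateral white, against 26 and 28 in medial and lateral red. Cluster 2 held 905 and 1244 in white, against 203 and 436 in red. CCN1 had 69.8 and 103 CPM in the white cells of cluster 0. In cluster 2 it had 506 and 518 CPM in medial and lateral white, against 460.0 and 386 CPM in medial and lateral red. For CCN2, cluster 0 had 704 and 576 CPM in white, and cluster 2 had 2858 and 1971 CPM in white, against 1968 and 2825 CPM in red. Within cluster 2 the zones thus overlapped for CCN2 and stood higher in white for CCN1. The part of cluster 0 in the fibrochondrocyte result was not tested. With Leiden clusters in place of marker groups the calls were lost (CCN1 −0.72, adjusted p = 0.417, and CCN2 −0.79, adjusted p = 0.179), and dropping the meniscus term alone also lost them (CCN1 −1.13, adjusted p = 0.135, and CCN2 −0.998, adjusted p = 0.143). Fits without that term and without 1 library called both when lateral white was left out and neither when another library was. DESeq2 called none of the members in fibrochondrocyte-list cells. In fibroblast clusters 5 and 9 the red libraries stayed higher for both genes, with CCN2 in cluster 9 at 833 and 663 CPM in medial and lateral white, against 1424 and 2096 CPM in medial and lateral red.

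**Figure D4:**
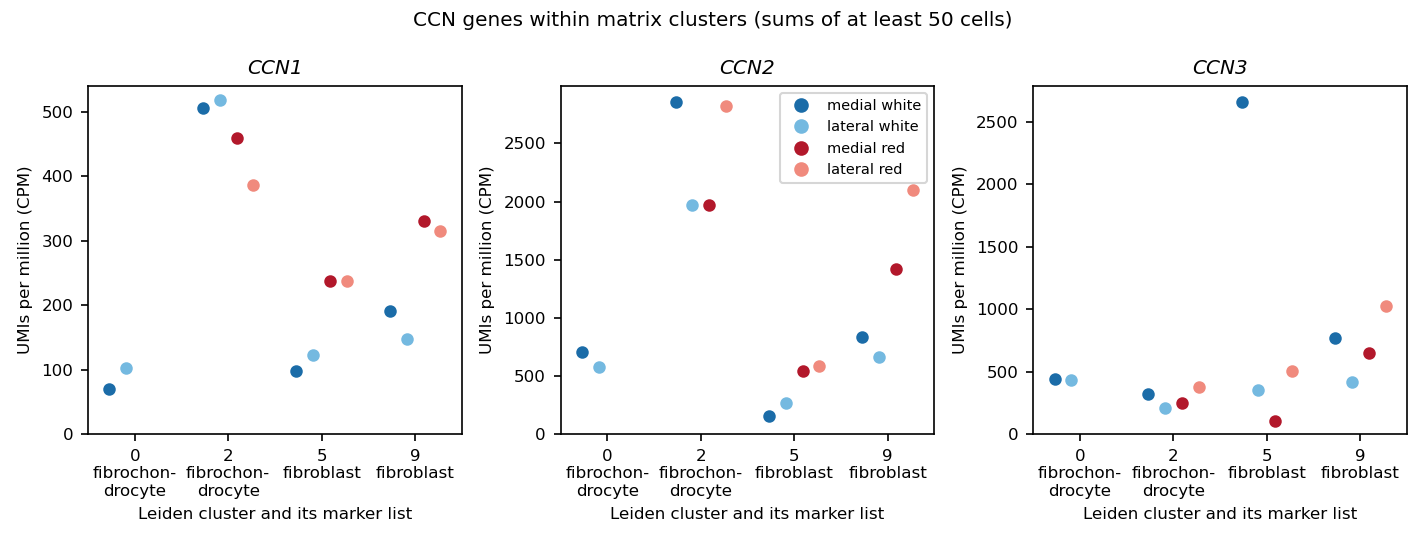
CCN1, CCN2 and CCN3 levels in CPM in 4 Leiden clusters of matrix cells, 1 point per library for sums of at least 50 cells. In cluster 2 CCN1 was 506 and 518 CPM in white against 460.0 and 386 CPM in red, while cluster 0 has points of the white libraries only.

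Immediate-early genes, which respond to handling and digestion of tissue among other stimuli, also fell in the white zone. Over all cells 13 of 19 fell and 2 rose, where 22.0% of all genes fell and 17.8% rose, with a summed level of 3470 and 3800 CPM in medial and lateral white, against 5910 and 5903 CPM in medial and lateral red. In fibrochondrocyte-list cells the sum was 3255 and 4160 CPM in white, against 6405 and 5759 CPM in red, and 8 of 17 fell, where 5.85% of genes were called in either direction. In mural cells it was 4984 and 4111 CPM in white, against 6496 and 6727 CPM in red, with 6 of 18 lower and 1 higher, where 11.4% of genes were called. In fibroblasts 2 of 18 fell, where 2.47% of genes were called. The part of that list in the zone differences of CCN1 and CCN2 was not tested.

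CCN3 showed the largest zone difference of the members inside a cell group, in mural cells. Its level there was 1017 CPM in medial white and 481 CPM in lateral white, against 89.6 CPM in medial red and 81.6 CPM in lateral red. These levels came from 219, 127, 158 and 124 UMIs in that order, and the white values stood apart from the red ones. The log2 fold change was 3.09 ± 0.26 (edgeR, adjusted p = 4.1e-29), and it stayed between 2.55 and 3.57 under every alternative run. So small a p-value rests on a spread borrowed across genes. It does not measure the spread between the white libraries, at 1017 and 481 CPM, and is not to be compared with those of other groups. In white mural cells 71 of 153 in medial and 43 of 152 in lateral held a CCN3 UMI, against 66 of 1006 in medial red and 79 of 936 in lateral red. After thinning to 1000 UMIs the shares were 47.1% and 27.7% in medial and lateral white, against 4.81% and 7.10% in medial and lateral red. Thinning left out 66 and 69 of the white mural cells, against 216 and 260 of the red ones. In myeloid cells, which served as a background, the thinned share was at most 3.39%. The median mural cell held 1086 and 1049 UMIs in white, against 1514 and 1342 in red, and the median myeloid cell 1364 and 1455 in white, against 1323 and 1422 in red. A single medial red cell held 52 of the 158 UMIs.

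**Figure D5:**
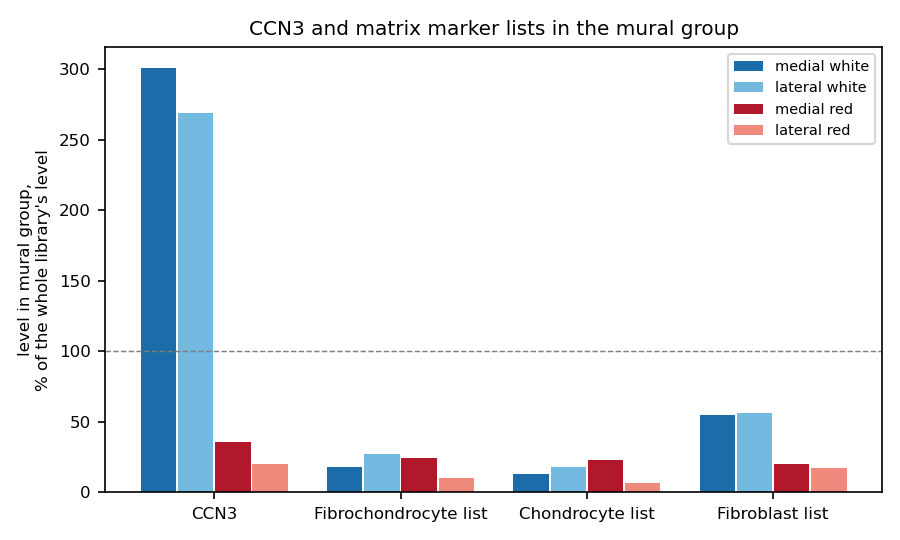
Level in the mural group as a percentage of the level of the whole library, for CCN3 and for the summed marker lists of fibrochondrocytes, chondrocytes and fibroblasts. CCN3 stands at 301% and 269% in medial and lateral white against 35.8% and 20.3% in medial and lateral red, and the lists at 56.1% or less in every library.

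Other measures of the mural group also differed between the zones. CCN3 in white mural cells was 301% and 269% of the level of its whole library. The marker lists of other matrix cells stood below their library level in the same cells, the fibrochondrocyte list at 18.03% and 26.98% in medial and lateral white, against 24.3% and 10.2% in medial and lateral red, the chondrocyte list at 13.1% and 18.3% against 23.3% and 6.71%, and the fibroblast list at 54.7% and 56.1% against 20.4% and 17.4%. The pericyte marker RGS5 had 6025 and 5504 CPM in white mural cells, against 1855 and 2156 CPM in red ones. Contractile markers ran the other way, with ACTA2 at 701 and 1181 CPM in white, against 3102 and 3424 CPM in red, and MYH11 at 367 and 397 CPM, against 1203 and 1047 CPM. Of the rest of the mural list, CSPG4 read higher in white, with 139 and 117 CPM, against 56.7 and 34.9 CPM in red. NOTCH3, MCAM, KCNJ8 and ABCC9 overlapped between the zones, and TAGLN, CNN1, LMOD1, DES and SYNPO2 read lower in white. The part of this make-up of the mural group in the CCN3 result was not tested.

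CCN3 was also higher in white endothelial cells, with 132 and 77.0 CPM in medial and lateral white, against 37.4 and 21.2 CPM in medial and lateral red (1.66 ± 0.29, edgeR adjusted p = 0.00692). There 6.31% of genes and 1 of 5 members were called. Some markers of the endothelial list differed between the zones. ACKR1 had 28.5 and 29.9 CPM in medial and lateral white, against 529 and 440 CPM in medial and lateral red. PLVAP had 1779 and 1218 CPM in white, against 865 and 782 CPM in red, while CDH5, EMCN and RAMP2 overlapped. The part of this make-up in the endothelial CCN3 result was not tested. A single cell held 11 of the 18 CCN3 UMIs of lateral white endothelial cells. Without the medial white library and the meniscus term the value was 1.20 (adjusted p = 0.253), against 1.68 (adjusted p = 0.0211) without that term alone, and DESeq2 gave 1.68 (adjusted p = 0.135). In fibrochondrocyte-list cells CCN3 ran the other way, with 458 and 267 CPM in medial and lateral white, against 658 and 741 CPM in medial and lateral red (−0.93 ± 0.27, adjusted p = 0.0174). That value was −0.42 with a stricter margin between lists (adjusted p = 0.572) and −0.10 with Leiden clusters (adjusted p = 0.97). The red levels rest on few cells: 6 of 182 medial red and 11 of 362 lateral red cells held 50% of the CCN3 UMIs. A single cell held 33 of 180 UMIs in medial red and 73 of 469 in lateral red. In cluster 2 the zones overlapped for CCN3, at 325 and 213 CPM in medial and lateral white, against 249 and 374 CPM in medial and lateral red. Fibroblasts had 1980.5 and 637 CPM in white, against 302 and 734 CPM in red, where the groups overlapped (adjusted p = 0.308).

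The zone difference of CCN3 itself differed between groups. In mural cells it exceeded the mean of the other groups by 2.36 ± 0.35 (edgeR, adjusted p = 0.000743), where 1.02% of 9233 genes and 1 of 5 members were called. In fibrochondrocyte-list cells it was lower than in the others by a log2 value of −2.37 ± 0.34 (adjusted p = 0.000223), where 2.34% of genes and 1 of 5 members were called and the median of all genes stood at 0.35. The mean used for mural cells includes fibrochondrocyte-list cells and the reverse, so the values are not separate findings. The mural value was 2.37 without medial white (adjusted p = 0.121) and 2.32 without lateral white (adjusted p = 0.0954), so either white library decides the call. With the medial white library left out, the fibrochondrocyte value was −2.01 (adjusted p = 0.113). With Leiden clusters it was −1.36 (adjusted p = 0.0996). In the other 3 groups edgeR and DESeq2 called none of the 5 members, and 1 member in endothelial cells, 2 in fibroblasts and 0 in myeloid cells had an unadjusted p below 0.05, where 1.68%, 0.477% and 0.661% of all genes were called. In the added chondrocyte group 2.71% of genes and none of the members were called, with CCN3 at −0.69 ± 0.59.

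Over all cells CCN3 had 338 and 179 CPM in medial and lateral white, against 250.4 and 402 CPM in medial and lateral red, and the groups overlapped (0.12 ± 0.34, edgeR adjusted p = 0.799, and −0.37 without TMM scaling, adjusted p = 0.364). Means over libraries were 913 ± 735 CPM in fibroblasts, 531 ± 213 in fibrochondrocyte-list cells, 417 ± 441 in mural cells, 67.3 ± 49.0 in myeloid cells and 67.0 ± 49.5 CPM in endothelial cells (SD, n = 4). The values of each group overlapped with those of the next. Against the other groups CCN3 was higher in fibroblasts (2.38 ± 0.33) and fibrochondrocyte-list cells (2.34 ± 0.35) and lower in endothelial (−2.73 ± 0.46) and myeloid cells (−2.30 ± 0.48). Cells with markers of more than 1 list had 194 and 126 CPM in white, against 801 and 896 CPM in red, and held 26.6% and 22.5% of the CCN3 UMIs of medial and lateral red.

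The other members of the CCN family measured were CCN4, CCN5 and CCN6, and over all cells 2 rose and 1 fell, where 17.8% of all genes rose and 22.0% fell. CCN6 had 40.0 and 58.1 CPM in medial and lateral white, against 2.11 and 5.06 CPM in medial and lateral red, a log2 fold change of 4.33 ± 0.24. CCN5 had 0.738 and 3.21 CPM in white, against 25.3 and 21.0 CPM in red (−3.17 ± 0.48), and it was higher in fibroblasts than in the other groups by 3.64 ± 0.26. CCN4 differed by 0.67 ± 0.20. CCN6 was higher in the white zone inside fibrochondrocyte-list cells, with 19.2 and 36.6 CPM in medial and lateral white, against 14.6 and 6.32 CPM in medial and lateral red (1.80 ± 0.54, edgeR adjusted p = 0.0229). Both red values stood near the limit of 3 UMIs, at 10.97 CPM in medial red and 4.74 CPM in lateral red. The zones lay closer together in the medial than in the lateral meniscus. The part of the clusters of fibrochondrocyte-list cells in this CCN6 value was not tested, and CCN6 was read in the main fit only.

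Between the menisci none of the 6 genes was called by edgeR or by DESeq2, and 1 had an unadjusted p below 0.05. That gene was TRPV4, at 10.1 and 0.760 CPM in the white and red medial libraries, against 4.30 and 0.539 CPM in the white and red lateral libraries (medial over lateral log2 fold change 0.98 ± 0.35, adjusted p = 0.609). Of the 12463 genes tested, 0.0642% were called. Of the 6 genes, those high enough to be read also differed in which genes they resembled. Over the 20 sums of 4 libraries and 5 groups, which share depth and libraries, YAP1 levels were closest to DLC1, CAMK2D and CDC42BPA (Pearson r 0.97, 0.95 and 0.95), CCN3 to TNC, ETV1 and ITGB5 (0.96, 0.92 and 0.91), CCN2 to GOLIM4 (0.92), CCN1 to PLS3 (0.90) and PIEZO1 to RIPOR1 (0.89), among 5130 genes. CCN1 was likened to CCN2 at 0.80 and to YAP1 at 0.83. CCN1, CCN2 and YAP1 were all lowest in the myeloid sums, whose part in these r values was not tested. Among the other groups, YAP1 had its lowest mean in fibrochondrocyte-list cells, where CCN1 and CCN2 had their highest. TRPV4 was too low in the 20 sums for a likeness to be read. PIEZO1 averaged 16.5 CPM over them, below the minimum mean of 20 CPM set for likeness, so its nearest gene is uncertain too.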

How the data were processed

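Single-cell RNA was measured with the 10x Genomics 3′ v3.1 assay, per the labels' protocols. The authors' deposited files hold UMI counts per gene and barcode, made with Cell Ranger 6.1.2 on Sscrofa11.1, per the submitters' processing notes. Of 21280 features, 14811 had a symbol in the files and 688 took one from the gene table. Barcodes with fewer than 500 UMIs, fewer than 200 genes or more than 20% mitochondrial UMIs were left out, as were barcodes called doublets by Scrublet, 112 in lateral red and 0 in the other 3 libraries, where the caller did not work; removal of the highest scores was tried as an alternative.

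Cells were grouped by the marker list whose UMIs most exceeded the expected number, with at least 3 UMIs of at least 2 genes, a ratio of at least 1 and a margin of 1.5 over the next list; near that margin, under 2, lay 1259 of 5819 fibrochondrocyte-list and 75 of 2247 mural cells. Fibrochondrocyte-list cells had a median of 61 UMIs of their own list, 6 of the chondrocyte list and 5 of the fibroblast list. Cells with no clear list (3221) or several (3408) formed no group. Counts summed per library and group (at least 50 cells in each library) entered quasi-likelihood tests after TMM scaling and filterByExpr (edgeR 4.0.16 under R 4.3.3), with 1 residual degree of freedom for the zone and meniscus tests, 12 for cell groups and 8 for zone differences between groups; with so few, the spread is mostly borrowed across genes. P-values were adjusted by Benjamini-Hochberg over all tested genes, and the SE is the log2 fold change over the root of F. DESeq2 1.42.0 and Leiden clusters (scanpy 1.11.5, 2000 variable genes without the members, resolution 0.5) were alternatives. The scripts were tested on simulated data. The genes named are the 6 members, up to 4 per list with the lowest p in a comparison, and the genes most alike. Members and lists were chosen with earlier results of these data known.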

Additional observations from a re-analysis of the deposited data

Results flagged for a closer look

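CCN3 stands out because its white over red difference was not the same in all cell groups by a test of the difference itself. It was larger in mural cells than in the mean of the other groups by 2.36 on the log2 scale, and lower in fibrochondrocyte-list cells by a log2 value of −2.37. Each of these means includes the other group, so the values are not separate findings. The mural call was lost when either white library was left out. The fibrochondrocyte call was lost without medial white and with Leiden clusters.

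CCN2 and CCN3 over all cells moved in opposite directions in the menisci, and those differences were not tested. The log2 ratio of white over red was 0.25 in the medial and −0.26 in the lateral meniscus for CCN2. For CCN3 it was 0.43 in the medial and −1.17 in the lateral meniscus.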

How the results depend on the processing

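Depth limits TRPV4 most, with 14 UMIs in the red zone. Over all cells, 4961 genes were called between the zones, 3275 with DESeq2 and between 2436 and 5158 with 1 library left out, fits that also drop the second term (4632 without that term alone). Between the menisci 8 were called, 29 without TMM scaling, 264 without a filter, 32 with DESeq2, 0 with the highest doublet scores removed and 0 in each fit without a library, which also drops the zone term, as does the fit with all 4 libraries and no second term, which likewise called 0. Library totals in place of TMM turned the zone difference of CCN2 (−0.0051), PIEZO1 (−0.27) and CCN3 (−0.37), and gave YAP1 a call (−0.92) that it does not have with TMM. Without TMM the CCN2 value in fibroblasts was −1.24 and YAP1 in fibrochondrocyte-list cells against the other groups was 0.19, neither called; calls against the other groups split into 979 higher and 3674 lower for fibrochondrocyte-list cells, against 2021 and 1396 with TMM, 2795 and 648 for mural cells, against 1579 and 1330, and 2702 and 1191 for endothelial cells, against 1680 and 1874.

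The labels give no replicate numbers, so the meniscus stands as the block. Without this replicate block 0 genes were called between the menisci, and in fibrochondrocyte-list cells CCN2 (−0.998), CCN1 (−1.13) and CCN3 (−0.89) were no longer called.

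DESeq2 lost the zone calls of CCN3 in endothelial cells (1.68), CCN1 in mural cells (−0.82) and, in fibrochondrocyte-list cells, CCN2 (−0.98), CCN1 (−1.23) and CCN3 (−0.92). Leiden clusters lost those of CCN1 in mural cells (−0.57), the fibrochondrocyte values of CCN2 (−0.79), CCN1 (−0.72) and CCN3 (−0.10), and the CCN3 zone difference between groups for fibrochondrocyte-list cells (−1.36). The stricter margin lost CCN2 (−0.98) and CCN3 (−0.42) in fibrochondrocyte-list cells, and the absence of a filter CCN3 (−0.82).

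With 1 library and the second term left out, the zone difference over all cells ran from −0.65 to −0.20 for YAP1, −0.37 to 0.30 for CCN1 and −0.31 to 0.54 for CCN3. The difference between menisci, into which these fits mix the zone, ran from −0.61 to 0.087 for CCN2, −0.072 to 0.32 for PIEZO1, −2.17 to 3.69 for TRPV4 and −0.43 to 0.45 for CCN3. Inside groups the zone difference ran from 1.20 to 2.24 for CCN3 in endothelial cells, −0.93 to −0.76 for CCN1 in mural cells, −1.61 to −1.13 for CCN2 in fibroblasts, and in fibrochondrocyte-list cells −1.25 to −0.59 for CCN2, −1.81 to −0.65 for CCN1 and −1.25 to −0.60 for CCN3. Fits over cell groups kept all their terms with 1 library left out. Against the other groups the value ran from 0.57 to 0.90 for CCN1 in mural and 0.43 to 0.86 for YAP1 in fibrochondrocyte-list cells. The CCN3 zone difference between groups ran from 2.17 to 2.46 for mural and −2.62 to −2.01 for fibrochondrocyte-list cells. The cause of these changes was not tested. Of 49 tests of members inside or between groups without a call, 11 gained one in any setting, in 37 of 539 settings.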
